A study of Mus musculus with 8 samples.

Results

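The transforming growth factor-β (TGF-β) and activin genes of the mouse colon are described here across cultured and freshly isolated cells. They are the ligand genes Tgfb1, Tgfb2 and Tgfb3, the activin subunit gene Inhba, the receptor genes Tgfbr1, Tgfbr2 and Tgfbr3, and the TGF-β-induced matrix gene Tgfbi. The genes are given by symbol and were chosen with earlier results of these data known, and all 8 were found among the 32285 genes of the count matrices. Droplet-based single-cell RNA sequencing covered 8 libraries, 2 for each of 4 groups. The groups were stromal cells of colon assembloids, epithelial cells of colon assembloids, epithelial cells of colon organoids, and epithelial cells of colon tissue. Assembloids are cultures in which crypt epithelium grows together with colon stromal cells, and organoids are epithelial cultures without stroma.

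All libraries came from C57BL/6 mice, and no transgene or deletion is named for any of these libraries. Per the study's methods its mice were males aged 6 to 12 weeks. Stroma was taken from 2 mice, was expanded in serum before assembly, and was sequenced as cells lacking the epithelial surface protein EpCAM. Assembloids were collected after 4 to 5 days. Organoid medium and assembloid medium both contained epidermal growth factor and A83-01, an inhibitor of the kinases of TGF-β and activin type I receptors. Assembloid medium lacked the Wnt protein, CHIR-99021, R-spondin 1 and noggin that organoid medium contained. The cultures were therefore under receptor blockade and the tissue was not, so the effects of culture and of the inhibitor cannot be told apart. Tissue crypts were released with EDTA and assembloids were digested with enzymes. The study calls the 2 libraries of a group biological replicates, and the labels do not say which animals or cultures each came from.

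TGF-β ligands are secreted in a latent form, held in the matrix by binding proteins and released by integrins and proteases. The active ligand binds the type II receptor encoded by Tgfbr2, which recruits and phosphorylates the type I receptor encoded by Tgfbr1, and SMAD proteins then carry the signal to the nucleus. The co-receptor encoded by Tgfbr3 presents ligand, and activin, a dimer of the subunits made from Inhba, signals through its own receptors to the same SMAD proteins. In the gut the pathway restrains epithelial growth and drives matrix production by fibroblasts.

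The ligand genes lie on different chromosomes. In GENCODE M21 coordinates of GRCm38, Tgfb1 spans chr7:25687002-25705077 on the plus strand, Tgfb2 chr1:186622792-186705989 on the minus strand, Tgfb3 chr12:86056745-86079041 on the minus strand and Inhba chr13:16011851-16031621 on the plus strand. Among the other genes, Tgfbi lies at chr13:56609523-56639562, Tgfbr1 at chr4:47353222-47414931, Tgfbr2 at chr9:116084293-116175360 and Tgfbr3 at chr5:107106570-107289629. The 250 bases upstream of the RefSeq start (GRCm38.p6) are shown for 3 ligand genes, since Tgfb1 was detected in every cell class below whereas Tgfb2 and Inhba were concentrated in stromal classes. Capitals mark matches to TATAAA or to GGGCGG, searched on both strands as TTTATA and CCGCCC.
Tgfb1: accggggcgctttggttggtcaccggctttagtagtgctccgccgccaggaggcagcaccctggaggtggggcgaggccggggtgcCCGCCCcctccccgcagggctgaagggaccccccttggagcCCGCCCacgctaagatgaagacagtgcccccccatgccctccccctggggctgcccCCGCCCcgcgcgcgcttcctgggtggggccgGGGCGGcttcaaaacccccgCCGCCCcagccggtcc
Tgfb2: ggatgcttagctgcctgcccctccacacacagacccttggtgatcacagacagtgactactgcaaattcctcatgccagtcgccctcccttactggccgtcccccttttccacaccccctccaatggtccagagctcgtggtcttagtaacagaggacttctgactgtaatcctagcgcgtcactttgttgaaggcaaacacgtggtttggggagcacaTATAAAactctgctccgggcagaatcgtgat
Inhba: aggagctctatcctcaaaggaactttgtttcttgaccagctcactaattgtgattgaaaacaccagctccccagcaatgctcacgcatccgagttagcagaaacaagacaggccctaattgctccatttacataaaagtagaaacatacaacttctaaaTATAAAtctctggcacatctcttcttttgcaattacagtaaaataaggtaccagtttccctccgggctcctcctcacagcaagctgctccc
The windows are chr7:25686752-25687001 on the plus strand for Tgfb1, chr1:186705990-186706239 on the minus strand for Tgfb2 and chr13:16011601-16011850 on the plus strand for Inhba. The Tgfb1 window had 75.2% G and C bases, 5 matches to GGGCGG and none to TATAAA. The Tgfb2 window had 53.6% and the Inhba window 43.2%, each with 1 match to TATAAA and none to GGGCGG, starting 31 bases before the start of Tgfb2 and 91 before that of Inhba. Over 32851 windows of the same length, 12.37% held TATAAA and 32.74% held GGGCGG. A match is a string of letters and no evidence of binding.

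The libraries held 5984 to 32932 barcodes and 99133978 to 191255856 unique molecular identifiers (UMIs, each counting 1 captured mRNA molecule). A barcode was kept if it had 500 genes or more and a mitochondrial share of its UMIs of no more than 10%. The share of barcodes that passed was lowest in tissue, at 38.7% and 25.4%. It was 81.4% and 55.3% in organoid, 89.3% and 55.1% in assembloid epithelial and 94.8% and 96.1% in stromal libraries. Cells were classed by summed marker UMIs per 10000. The epithelial class held 4665 and 4294 tissue cells, 4862 and 7744 organoid cells and 25610 and 6813 assembloid cells. Their median UMIs per cell were 3530 and 3702 in tissue, 35240 and 7156 in organoids and 3570 and 13898 in assembloids. Fibroblasts numbered 7607 and 8577 in the stromal libraries, 566 and 478 in the assembloid epithelial libraries and 0 in organoids and tissue. Any pair of libraries shared 13 to 141 barcodes. Levels are counts of a gene per 1000000 UMIs of the class (CPM), given for library 1 and then library 2. Fold changes and adjusted p-values come from edgeR's quasi-likelihood test on UMIs summed per library and class, with Benjamini-Hochberg adjustment over all genes tested and TMM scaling, so that a fitted fold can differ from the ratio of the levels. Intervals cover counting error only. Where groups or classes are said not to overlap, this is a description, and the share of all genes without overlap is not given. Under random order, 2 libraries lie wholly above or below 2 others with a probability of 0.33.

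Stromal RNA was also present in assembloid epithelial cells, and its level is given because several of the 8 genes are high in fibroblasts. The 8 fibroblast markers summed to 155 and 32.8 CPM in assembloid epithelial cells, with none at 0. They summed to 0.811 and 1.21 in organoids and to 0.298 and 0.407 in tissue, where 4 to 6 of the 8 markers, Col1a2 among them, were at 0. Macrophage markers summed to 49.4 and 30.9, 33.6 and 28.6, and 31.3 and 34.0 in the same order of groups.

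Assembloid epithelial cells held more Tgfb1, Inhba, Tgfbr2 and Tgfbr3 mRNA than tissue epithelial cells and less Tgfbr1, with the fibroblast RNA among them counted in. The part of that RNA in the differences of Inhba and Tgfbr3 was not tested. Organoid epithelium carried more Tgfb1, Tgfb3 and Tgfbr2 than tissue and less Tgfbr3. In assembloids against tissue 5 of the 8 genes passed the test, beside 50.1% of all genes tested (26.7% higher and 23.4% lower). In organoids against tissue 4 of 8 passed beside 47.5% (24.4% higher and 23.1% lower), and in organoids against assembloids 7 of 8 beside 53.1% (24.4% higher and 28.7% lower). About as many genes passed in the whole table as among the 8 in both comparisons with tissue, so what follows is about the single genes. The median log2 fold change of the 8 was 1.35, 0.86 and −0.22 in the 3 comparisons, beside 0.03, 0.05 and −0.01 over all genes. The comparisons share libraries and are not independent of each other.

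Tgfb1 encodes the most widely expressed TGF-β ligand. Its level was 4.46 and 4.96 in tissue epithelium, 7.39 and 11.5 in organoid epithelium and 13.8 and 15.3 in assembloid epithelium. The 3 groups did not overlap, and both cultures lay above tissue. The log2 fold change against tissue was 2.02 ± 0.21 (SE, adjusted p = 0.000206) in assembloids and 1.21 ± 0.21 (adjusted p = 0.00197) in organoids. Organoids were below assembloids by a fitted log2 fold change of −0.81 ± 0.20 (adjusted p = 0.00987), which was not called with scaling to library size (adjusted p = 0.0793).

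The other TGF-β ligand genes had lower levels in epithelium than Tgfb1. Tgfb2 stood at 0.490 and 0.705 in tissue, 0.517 and 0.990 in organoids and 0.612 and 0.364 in assembloids, with overlapping groups and no call in any comparison (adjusted p = 0.43 to 0.836). Tgfb3 stood at 1.42 and 1.35 in organoids, above 0.412 and 0.215 in assembloids and 0.192 and 0.271 in tissue. In assembloids against tissue Tgfb3 was not called (0.88 ± 0.55, adjusted p = 0.216). All barcodes with no gate take in the fibroblasts and other cells of the assembloid libraries, so they are not epithelial cells alone. Over them Tgfb3 (3.03, adjusted p = 0.000279) and Tgfb2 (1.501, adjusted p = 0.00963) were both called. The log2 fold change of Tgfb3 in organoids was 2.83 ± 0.55 against tissue (adjusted p = 0.00366) and 1.95 ± 0.50 against assembloids (adjusted p = 0.0114). The call against assembloids was lost without organoid library 1 (adjusted p = 0.0747), and the sign turned to −0.26 over all barcodes with no gate.

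Inhba encodes the subunit that forms activin A. It was counted 979 and 120 times in assembloid epithelial cells, 14 and 8 times in organoids and 1 and 0 times in tissue. The levels were 6.12 and 1.12, 0.0747 and 0.0870, and 0.0213 and 0 CPM, where the floor of 3 UMIs stands at 0.0640 and 0.0813 in the tissue libraries. Both assembloid libraries lay above every other library, but they differed from each other by more than the organoid libraries did. Against the floor of 3 UMIs for both tissue libraries together, the pooled assembloid level was 115 times as high, and the ratio to the 1 UMI counted has a 95% counting interval of 61.7 to 13630. Against tissue, assembloids were called (adjusted p = 0.00108) and organoids were not (adjusted p = 0.202), except without assembloid library 1 or 2 (adjusted p = 0.0443 and 0.029) and over all barcodes (adjusted p = 0.0107). Organoids were lower than assembloids by a fitted log2 fold change of −5.70 ± 0.91 (adjusted p = 0.00139).

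Inhba of assembloid epithelial cells was higher in library 1, which also held more fibroblast RNA. Its size was set beside that RNA in 2 ways. First, Col1a2, a collagen gene of fibroblasts, stood at 17.1 and 3.21 in the assembloid epithelial cells and at 1379 and 1528 in the fibroblasts of the same libraries, a share of 1.24% and 0.210%. Inhba stood at 1.85% and 0.485% of its fibroblast level, and at the Col1a2 share it would have read 4.10 and 0.486. Per UMI of Col1a2 there were 0.357 (0.332 to 0.385) and 0.349 (0.281 to 0.431) UMIs of Inhba in epithelial cells, against 0.240 (0.226 to 0.255) and 0.151 (0.143 to 0.160) in fibroblasts. Second, cells without any UMI of the fibroblast list were taken alone, a choice made after seeing the data. They were 15643 and 4840 cells, or 61.1% and 71.0% of assembloid epithelial cells. Inhba fell there to 2.03 and 0.496 CPM, from 188 and 33 UMIs, and was still called against tissue (adjusted p = 0.00169). Cells with few UMIs reach this set more easily, and the part of undetected fibroblast RNA in it was not tested.

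Tgfbr3, which encodes the co-receptor betaglycan, was also highest in assembloids. Its levels were 0.448 and 0.407 in tissue, 0.0213 and 0.0109 in organoids (4 and 1 UMIs) and 3.75 and 2.10 in assembloids. No groups overlapped, with assembloids highest and organoids lowest. The log2 fold change against tissue was 3.20 ± 0.50 in assembloids (adjusted p = 0.00127) and −4.24 ± 0.66 in organoids (adjusted p = 0.00115), and organoids were below assembloids by a fitted −7.44 ± 0.64 (adjusted p = 0.000113). In tissue 17 of 21 and 13 of 15 UMIs came from the 46 and 89 enteroendocrine-like cells, so these folds are set against a level that few cells carry. In cells without a fibroblast UMI the assembloid levels were 1.83 and 1.46, and the log2 fold change against tissue was 2.33 ± 0.46 (adjusted p = 0.00377). Per UMI of Col1a2 there were 0.219 and 0.654 UMIs of Tgfbr3 in epithelial cells, against 0.140 and 0.175 in fibroblasts. At the Col1a2 share of fibroblast RNA, Tgfbr3 would have read 2.39 and 0.562 in assembloid epithelial cells.

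Tgfbi encodes a secreted matrix protein named for its induction by TGF-β. It stood at 0.533 and 0.407 in tissue, 0.181 and 0.152 in organoids and 1.76 and 0.411 in assembloids. Assembloid and tissue libraries overlapped, and the log2 fold change of 1.66 ± 0.72 was not called (adjusted p = 0.0877). It was called without assembloid library 2 (2.37, adjusted p = 0.00208), the library with less fibroblast RNA, without the low-count filter (1.68, adjusted p = 0.0223), with at most 5% mitochondrial counts (2.55, adjusted p = 0.041) and over all barcodes with no gate (3.34, adjusted p = 4.87e-05). All barcodes take in fibroblasts, and in cells without a fibroblast UMI Tgfbi read 0.77 (adjusted p = 0.33). Organoids against tissue gave −1.22 ± 0.75 (adjusted p = 0.215), called lower without assembloid library 2 (adjusted p = 0.0438) and over all barcodes (adjusted p = 0.0055). Organoids against assembloids gave −2.88 ± 0.74 (adjusted p = 0.0115), and the call was lost without assembloid library 1 (−1.32, adjusted p = 0.0631) and without either organoid library (adjusted p = 0.0654 and 0.0946). Cells without a fibroblast UMI gave −1.95 (adjusted p = 0.0292).

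**Figure D1:**
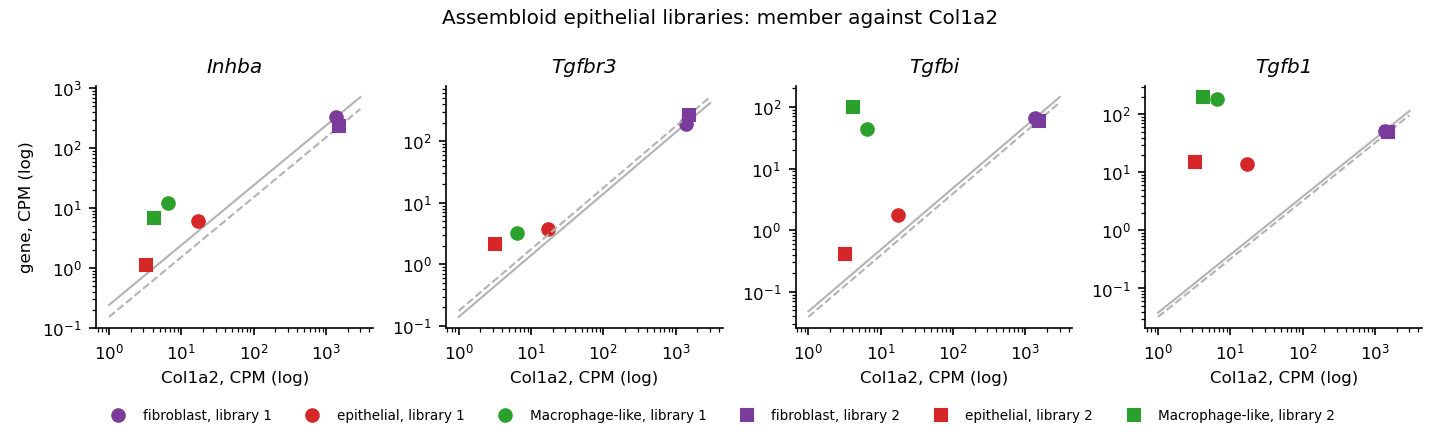
Level of Inhba, Tgfbr3, Tgfbi and Tgfb1 (vertical log axis, CPM) against that of the fibroblast gene Col1a2 (horizontal log axis) in fibroblasts, epithelial cells and Macrophage-like cells of assembloid epithelial library 1 (circles) and 2 (squares). The grey lines mark the fibroblast ratio of library 1 (solid) and library 2 (dashed), epithelial Inhba lies above them at 6.12 and 1.12, epithelial Tgfb1 far above them at 13.8 and 15.3, and Tgfbr3 of Macrophage-like cells in library 2 was at 0 and is not drawn.

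The signalling receptors moved in opposite directions in assembloids. Tgfbr1, the type I receptor gene, stood at 25.1 and 23.8 in tissue, 21.1 and 27.5 in organoids and 7.53 and 10.7 in assembloids. Assembloids lay below both other groups, which overlapped each other. Assembloids differed from tissue by a log2 fold change of −1.05 ± 0.19 (adjusted p = 0.0023), and organoids from tissue by 0.21 ± 0.18 (adjusted p = 0.373). Organoids were above assembloids by 1.26 ± 0.19 (adjusted p = 0.000968).

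Tgfbr2, the type II receptor gene, had its lowest levels in tissue. It stood at 41.0 and 38.8 in tissue, 82.9 and 133 in organoids and 53.6 and 72.9 in assembloids, without overlap. The log2 fold change against tissue was 1.64 ± 0.21 in organoids (adjusted p = 0.000486) and 1.04 ± 0.21 in assembloids (adjusted p = 0.00428). The assembloid call was lost with scaling to library size (0.66, adjusted p = 0.0596) and without tissue library 1 or 2 (adjusted p = 0.061 and 0.0692). Organoids against assembloids gave 0.59 ± 0.21 (adjusted p = 0.0402), a call lost without any 1 of 5 of the 6 epithelial libraries, organoid library 1 being the exception (adjusted p = 0.0587 to 0.218), over all barcodes (adjusted p = 0.0551) and in cells without a fibroblast UMI (adjusted p = 0.0505). At the Col1a2 share of fibroblast RNA, Tgfbr1 would have read 0.990 and 0.245 in assembloid epithelial cells and Tgfbr2 0.747 and 0.132.

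**Figure D2:**
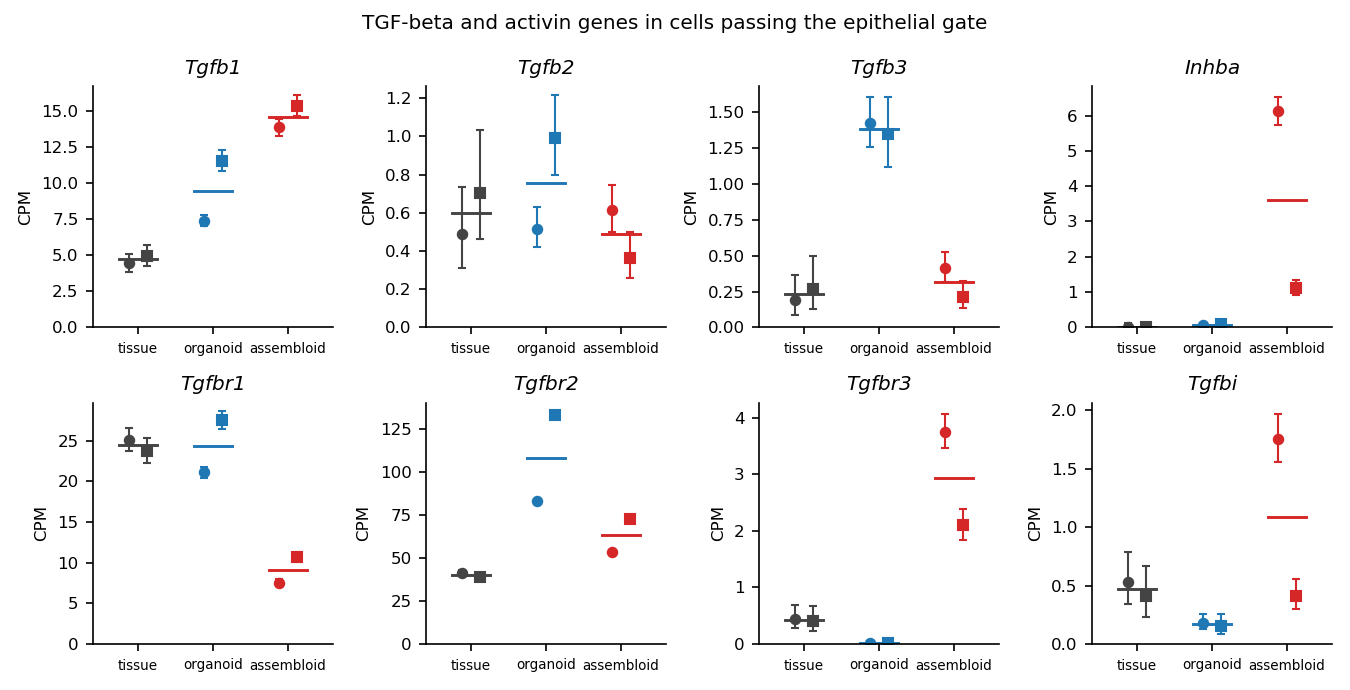
Levels of the 8 genes in epithelial cells (CPM, axes from 0) of tissue, organoid and assembloid libraries, where the circle is replicate 1, the square replicate 2, the horizontal line their mean and each error bar a 95% counting interval. Tgfb1 goes from 4.46 and 4.96 in tissue to 13.8 and 15.3 in assembloids, Tgfbr1 is lowest in assembloids at 7.53 and 10.7, and Inhba lies near 0 outside assembloids.

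The wider pathway was read from a list of 55 other genes, of which 49 were tested in epithelium. In assembloids against tissue 27 were higher and 4 lower, beside 26.7% and 23.4% of all genes, with a median log2 fold change of 1.17 beside 0.03. By role, 9 of 13 latency and activation genes were higher and 1 lower, 2 of 6 receptor genes were higher and 2 lower, 2 of 5 extracellular inhibitors were higher, and 3 of 12 intracellular genes were higher and 1 lower. Of 12 response genes 11 were higher and none lower, and the count was again 11 in cells without a fibroblast UMI. Of the same 12 genes 9 were higher in fibroblasts than in epithelial cells of these libraries, and the part of fibroblast RNA in their rise, also RNA left in cells without a detected fibroblast UMI, was not tested. Pmepa1, Ltbp2, Skil, Smad7 and Thbs1 are response genes too, but were counted under other roles in every comparison. In cells without a fibroblast UMI Smad7 (−0.99) and Thbs1 (−2.86) were lower, Pmepa1 (1.55) and Ltbp2 (2.05) higher, and Skil (0.07) was not called. With DESeq2 26 genes were higher and 4 lower, and with scaling to library size 24 were higher and 8 lower.

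The examples named are genes of latency, receptor, intracellular and response roles. Itgav, the integrin chain that binds latent TGF-β, stood at 73.9 to 106 in assembloids and 17.5 to 20.2 in tissue (log2 fold change 2.63). Thbs1, whose product can activate latent TGF-β, fell from 46.8 to 56.9 in tissue to 5.42 to 7.37 (−2.64). Acvr1c, which encodes the type I receptor ALK7, fell from 24.6 to 25.7 to 0.600 to 1.504 (−4.24). Among feedback genes, Pmepa1 rose from 25.3 to 30.5 to 56.6 to 71.3 (1.58), whereas Smad7, an inhibitory SMAD, fell from 64.5 to 74.0 to 21.1 to 32.1 (−1.01). Ccn2, a matricellular growth factor, rose from 0.0640 to 0.190 to 13.7 to 15.2 (7.29).

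Organoids against tissue had 6 of 49 pathway genes higher and 11 lower, with a median of −0.19. All genes were called higher in 24.4% and lower in 23.1%, so the lower count is near the background. Smad7 fell to 10.2 to 12.96 (−2.36), and Skil, another feedback inhibitor, fell from 52.7 to 61.0 to 7.95 to 12.2 (−2.30). Cdkn2b, the cyclin-dependent kinase inhibitor p15, fell from 37.9 to 48.3 to 7.56 to 10.2 (−2.02). Ccn2 rose as in assembloids, to 14.6 to 18.6 (7.31). Organoids against assembloids had 2 pathway genes higher and 32 lower, beside 24.4% and 28.7% of all genes, with a median of −1.26. With scaling to library size 27 were lower, and in cells without a fibroblast UMI the lower latency genes went from 10 to 6 of 13.

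Most of these genes were higher in fibroblasts than in epithelium. Fibroblast-like cells, defined by collagen and matrix markers, were compared with epithelial cells inside the same 2 assembloid epithelial libraries. Of the 8 genes 7 were higher in fibroblasts and none lower, beside 47.8% of all genes called (23% higher and 24.8% lower). The median log2 fold change of the 8 was 4.90, beside −0.20 over all genes. Tgfbr2 was the exception.

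Among ligands, Tgfb2 stood at 24.2 and 27.1 in fibroblasts, Tgfb3 at 7.30 and 6.43, Tgfb1 at 52.6 and 49.3 and Inhba at 330 and 231. All lay above the epithelial levels given above. The log2 fold change was 6.09 ± 0.88 for Inhba (adjusted p = 0.00188), 5.54 ± 0.39 for Tgfb2 (adjusted p = 0.000206), 4.27 ± 0.54 for Tgfb3 (adjusted p = 0.00116) and 1.67 ± 0.20 for Tgfb1 (adjusted p = 0.000826). Tgfb1 thus differed least between the compartments among the 4 ligand genes, by size of the fold and with no test between genes.

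Among receptors, Tgfbr3 stood at 193 and 267 in fibroblasts and Tgfbr1 at 79.8 and 116, whereas Tgfbr2 stood at 60.1 and 62.7, between the epithelial values of 53.6 and 72.9. The log2 fold change was 6.13 ± 0.43 for Tgfbr3 (adjusted p = 0.000206), 3.30 ± 0.26 for Tgfbr1 (adjusted p = 0.000243) and −0.17 ± 0.20 for Tgfbr2 (adjusted p = 0.52). Tgfbi stood at 66.4 and 59.9 and was higher by 5.66 ± 0.71 (adjusted p = 0.00107). The part of the fibroblast RNA in epithelial cells in these folds was not tested.

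Of 51 pathway genes tested, 33 were higher in fibroblasts and 6 lower. All 3 tested ligand genes were higher, among them Inhbb, which encodes another activin subunit, at 13.1 to 13.7 against 0.0467 to 0.206 (6.47). Latency genes were higher in 10 of 13 and lower in 2, with Lrrc32, which tethers latent TGF-β to the cell surface, at 90.7 to 119 (6.26). All 5 tested extracellular inhibitors were higher, among them the activin antagonists Fst at 9.03 to 15.4 (4.11) and Fstl3 at 93.7 to 117 (4.63). The endothelial-type receptor genes Acvrl1 and Eng were also higher (5.04 and 5.30), whereas 2 of the 6 receptor genes were lower, among them the activin receptor gene Acvr2a (−1.11). Of 12 response genes 9 were higher, led by Tnc (6.62), and 1 was lower.

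**Figure D3:**
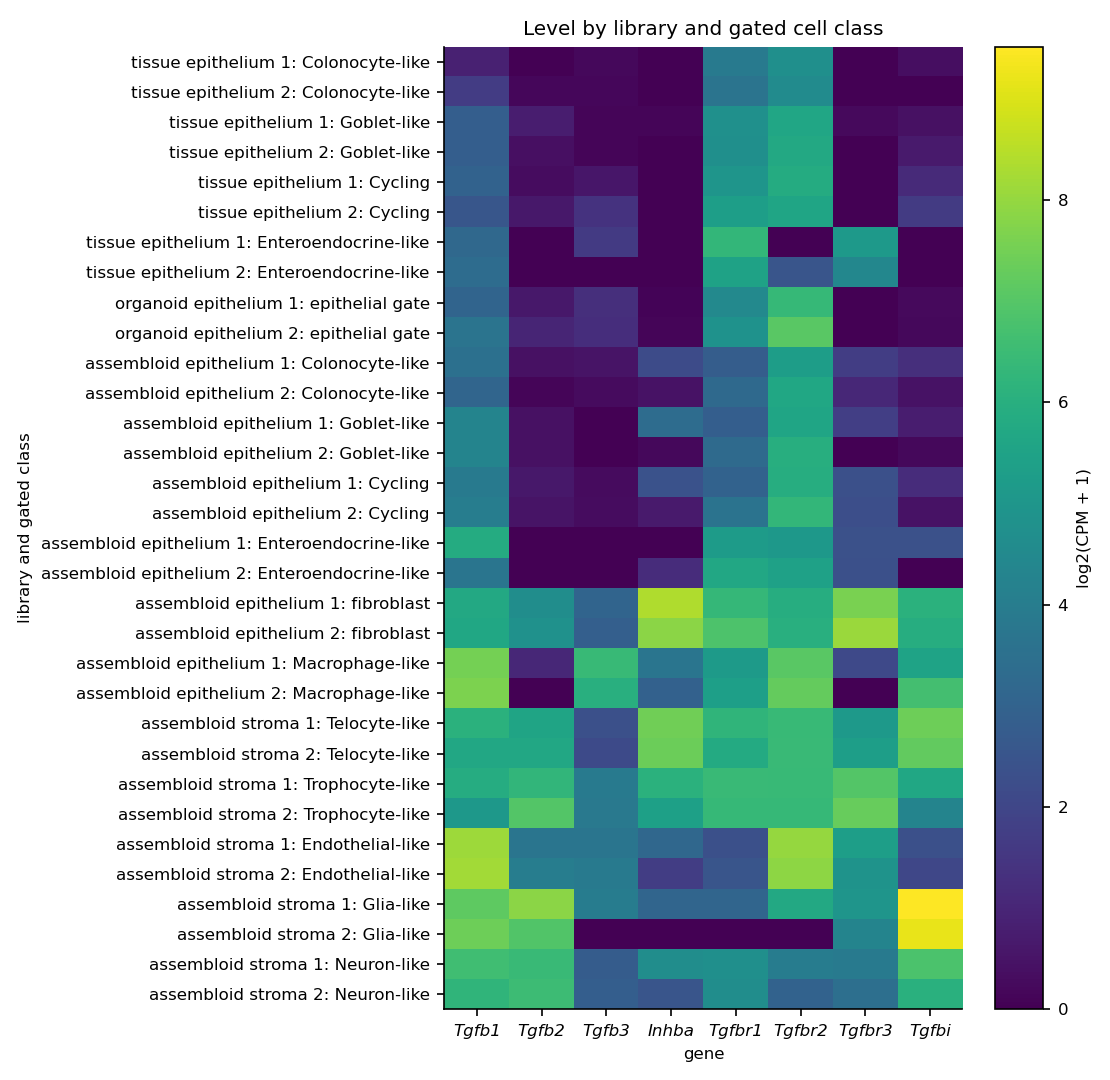
Heat map of log2(CPM + 1) for the 8 genes (columns) in each library and cell class (rows). Inhba and Tgfb2 are bright in fibroblast rows and dark in organoid and tissue rows, as is Tgfbr3 apart from tissue Enteroendocrine-like cells (34.8 and 20.2 CPM), whereas Tgfbr2 is bright in fibroblast, Macrophage-like and epithelial rows except those same cells (0 and 4.67 CPM).

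Macrophage-like cells of the assembloid epithelial libraries numbered 108 and 131, expressed all their own markers and gave a different mix. Tgfb1 stood there at 182 and 200 and Tgfb3 at 83.5 and 63.6, both above the fibroblasts of the same libraries. Tgfbr2 stood at 134 and 153, Tgfbr1 at 35.8 and 40.9 and Tgfbi at 44.5 and 100. Tgfb2 was counted 1 and 0 times and Tgfbr3 3 and 0 times, where the floor of 3 UMIs stands at 3.25 and 1.55 CPM. Inhba stood at 11.9 and 6.73. No test was run on this class.

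The stromal libraries allowed the fibroblasts to be divided. Their 7607 and 8577 fibroblasts carried Tgfb1 at 65.2 and 45.7, Tgfb2 at 60.5 and 74.9, Tgfb3 at 9.33 and 8.18 and Inhba at 106 and 78.5. Tgfbr1 stood at 71.8 and 66.3, Tgfbr2 at 75.4 and 77.5, Tgfbr3 at 79.4 and 103 and Tgfbi at 68.7 and 54.7. The headers name another Cell Ranger release for these libraries than for the epithelial ones, so levels were not tested across them.

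Fibroblasts were ranged by a score of telocyte minus trophocyte markers. Telocytes are subepithelial fibroblasts that produce bone morphogenetic proteins, and trophocytes lie below the crypts and support stem cells. The telocyte-like end held 782 and 1120 cells, the trophocyte-like end 705 and 1125, and 6120 and 6332 cells lay between, with 752 and 1026 cells within 0.1 of a limit. The ends are ranges of a score, not separate types. Between them 5 of the 8 genes passed the test, 2 higher and 3 lower at the telocyte-like end, beside 18.6% of all genes (9.92% higher and 8.63% lower).

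Inhba and Tgfbi were higher at the telocyte-like end. Inhba stood at 175 and 166 there, at 101 and 64.8 in intermediate cells and at 66.6 and 41.3 at the trophocyte-like end. Tgfbi stood at 171 and 148, at 56.8 and 39.6, and at 49.98 and 18.8. The ends did not overlap for either gene. By log2 fold change the difference was 1.62 ± 0.44 for Inhba (adjusted p = 0.0341) and 2.19 ± 0.48 for Tgfbi (adjusted p = 0.0152).

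Tgfb2, Tgfb3 and Tgfbr3 ran the other way. Tgfb2 stood at 46.3 and 51.4 at the telocyte-like end and 75.9 and 125 at the trophocyte-like end (−1.11 ± 0.24, adjusted p = 0.0139). Tgfb3 stood at 3.98 and 3.43 against 13.9 and 13.4 (−1.94 ± 0.18, adjusted p = 0.000415). Tgfbr3 stood at 33.2 and 39.7 against 124 and 157 (−2.00 ± 0.23, adjusted p = 0.00118). None of the 3 genes overlapped between the ends, and the intermediate cells lay between them for each library.

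The remaining genes differed less. Tgfb1 stood at 66.0 and 51.4 against 57.7 and 32.7 (0.34 ± 0.26, adjusted p = 0.394), with overlapping ranges. Tgfbr1 stood at 73.4 and 55.1 against 86.5 and 81.4 (−0.44 ± 0.17, adjusted p = 0.108). Both were called when the library entered as a block, since classes of the same library deviated together, with 0.36 (adjusted p = 0.0459) for Tgfb1 and −0.45 (adjusted p = 0.0223) for Tgfbr1. Tgfbr2 stood at 84.1 and 85.6 against 84.8 and 81.0 (−0.02 ± 0.17, adjusted p = 0.958).

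In the pathway list 1 gene was higher at the telocyte-like end and 9 lower, of 49 tested, beside 9.92% of all genes called higher and 8.63% lower. Acta2, which encodes smooth muscle actin, stood at 95.8 to 130 against 15.1 to 27.4 (2.38). The study reports Acta2-positive myofibroblasts as a stromal cluster of their own. No myofibroblast class was set here, so the fibroblast classes may hold such cells. Genes lower at the telocyte-like end included the latent TGF-β binding protein gene Ltbp2 (−2.49), the microfibril gene Fbn1 (−1.12) and Lox, which encodes a collagen cross-linking enzyme, at 46.9 to 85.1 against 252 to 283 (−2.07).

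**Figure D4:**
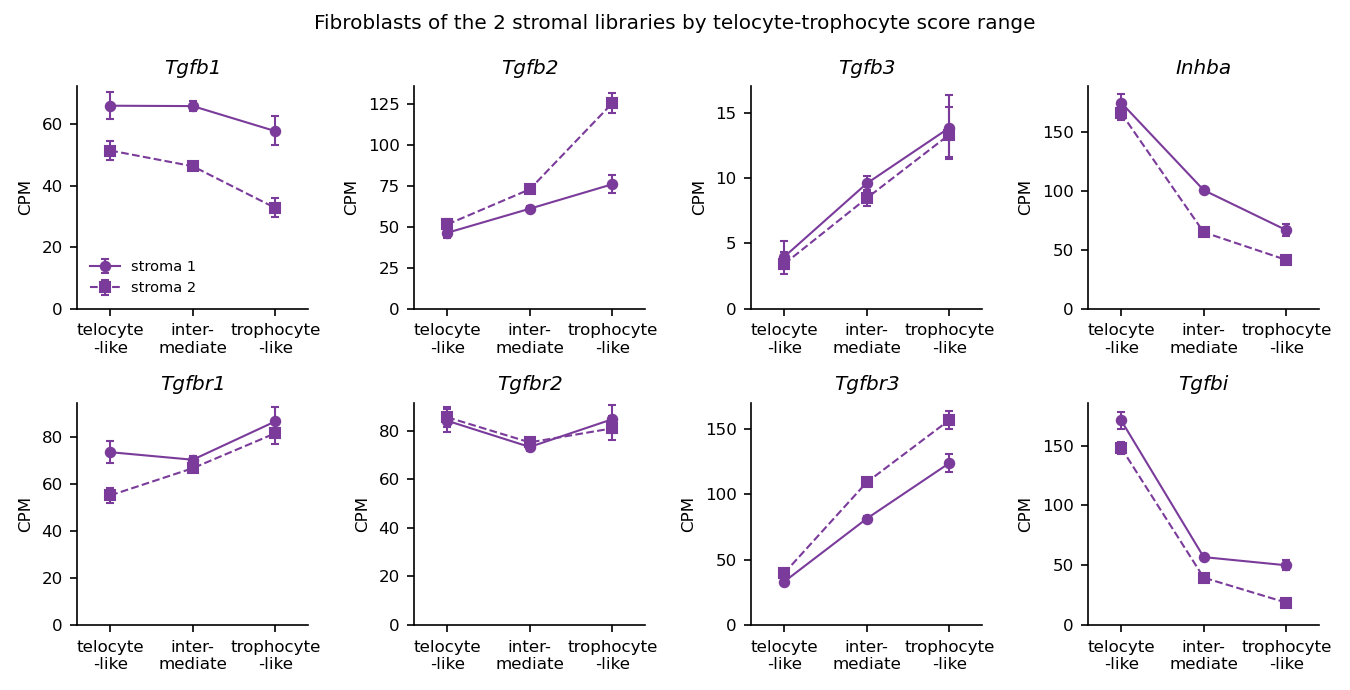
Levels of the 8 genes (CPM, axes from 0) in telocyte-like, intermediate and trophocyte-like fibroblasts of the 2 stromal libraries, where circles on solid lines are replicate 1, squares on dashed lines replicate 2, and error bars are 95% counting intervals. Inhba and Tgfbi fall from left to right, Tgfb2, Tgfb3 and Tgfbr3 rise, and Tgfbr2 stays between 73.3 and 85.6.

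Rarer stromal classes were set against the mean of both fibroblast ends. Neuron-like cells (63 and 105 cells) had 4 of the 8 genes lower and none higher, beside 38.6% of all genes called (18.9% higher and 19.7% lower). Tgfbr2 stood at 15.03 and 7.05 (−3.26 ± 0.24, adjusted p = 8.19e-06), Tgfbr1 at 25.4 and 24.3 (−1.81 ± 0.21, adjusted p = 0.000118) and Tgfbr3 at 13.9 and 10.2 (−2.86 ± 0.31, adjusted p = 7.9e-05). Inhba stood at 24.3 and 4.70 (−3.12 ± 0.58, adjusted p = 0.00228), a call lost with at most 5% mitochondrial counts (−1.96, adjusted p = 0.0603). All 4 lay below both fibroblast ends. Fibroblast markers summed to 545 and 590 CPM in these cells, against 8437 to 11870 in fibroblasts.

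The ligands Tgfb1 and Tgfb2 were not lower in the neuron-like cells. Tgfb1 stood at 97.1 and 74.4 (0.48 ± 0.25, adjusted p = 0.158) and was called with the library as a block (0.50, adjusted p = 0.0119), with at most 5% mitochondrial counts (1.34, adjusted p = 0.0102) and with the stricter gate (1.17, adjusted p = 0.0144). Tgfb2 stood at 86.7 and 90.8 (0.09, adjusted p = 0.8). Tgfb3 did not pass (−0.47, adjusted p = 0.352). Tgfbi stood at 112 and 64.2 (−0.01, adjusted p = 0.997), but reached 2.20 (adjusted p = 0.0099) in the 26 and 20 cells with at most 5% mitochondrial counts. Of 49 pathway genes 7 were higher and 25 lower, beside 18.9% and 19.7% of all genes, so the higher count does not exceed the background. Fst was the clearest of the higher ones, at 287 to 318 against 9.6 to 53.7 in fibroblasts (3.44), whereas Inhbb (−5.41) and Lrrc32 (−4.61) were lower.

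Endothelial-like cells (19 and 63) and glia-like cells (22 and 17) each fell short of the 20 cells first required in 1 library, and were fitted with a limit of 15 chosen after the cell numbers were seen. Endothelial-like cells had 2 of the 8 genes higher and 5 lower, beside 28.8% of all genes called (13.4% higher and 15.4% lower). Tgfb1 stood at 275 and 292 (2.37 ± 0.21, adjusted p = 2.44e-06) and Tgfbr2 at 255 and 235 (1.43 ± 0.23, adjusted p = 0.000384), both above the fibroblasts. Tgfb3 did not pass (0.86, adjusted p = 0.0626), but was called with scaling to library size (0.93, adjusted p = 0.0451). Tgfbr1 was counted 1 and 6 times, Inhba 2 and 3 times and Tgfbi 1 and 4 times, and all were called lower, as were Tgfb2 at 11.9 and 15.5 (−2.33 ± 0.37) and Tgfbr3 at 39.8 and 28.7 (−1.27 ± 0.27). Tgfbr3 overlapped the telocyte-like end, at 33.2 and 39.7, and was lower against the mean of both ends, of which the trophocyte-like end stood at 124 and 157. Eng, the endothelial co-receptor endoglin, stood at 147 to 173 against 40.4 to 58.3 (1.69), and 4 pathway genes were higher and 23 lower of 50.

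Glia-like cells had 3 of the 8 genes higher and 4 lower, beside 11.7% of all genes called (5.48% higher and 6.25% lower). Tgfbi stood at 731 and 590, from 97 and 63 UMIs, above every fibroblast class (2.92 ± 0.39, adjusted p = 0.000202). Tgfb1 stood at 143 and 169 (1.34 ± 0.32, adjusted p = 0.015) and Tgfb2 at 234 and 122 (1.11 ± 0.33, adjusted p = 0.045), where library 2 lies within the trophocyte-like range of 75.9 to 125, so that the call is against the mean of both ends. Tgfbr3 was called lower, from 6 UMIs in all, and lost the call with DESeq2 (adjusted p = 0.0657) and with scaling to library size (adjusted p = 0.0547), which also ended the calls of Inhba (adjusted p = 0.0693) and Tgfbr2 (adjusted p = 0.0948). Tgfbr1 was counted 1 and 0 times, Inhba 1 and 0 times and Tgfbr2 7 and 0 times, where 3 UMIs in library 2 would read 28.1 CPM. Tgfb3, from 2 UMIs in all, was not called (adjusted p = 1). Of 50 pathway genes 5 were higher and 10 lower in glia-like cells, with 3 latency genes in each direction and 1 response gene higher and 5 lower. Ltbp1, which encodes a latent TGF-β binding protein, stood at 354 to 412 against 14.7 to 21.2 (4.11). Inhbb, Fbn1, Lrrc32, Acta2 and Lox were among those called lower. Neuron markers summed to 1198 and 1499 in these cells, and the glia marker Gfra3 was at 0.

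Tgfb1 and Tgfbr1 were lower in colonocyte-like than in cycling cells of tissue epithelium. Colonocyte-like cells (426 and 776), the absorptive cells of the upper crypt, were compared with cycling cells (201 and 131), and 2 of 7 genes tested were lower and none higher, beside 39.8% of all genes called (20.7% higher and 19.1% lower). Tgfb1 stood at 0.832 and 2.24 in colonocyte-like cells and 7.03 and 4.86 in cycling cells (−1.43 ± 0.42, adjusted p = 0.0156). Tgfbr1 stood at 13.7 and 11.8 against 30.6 and 38.9 (−0.86 ± 0.24, adjusted p = 0.0107). The classes did not overlap for either gene. Both calls were lost with at most 5% mitochondrial counts (adjusted p = 0.534 and 0.187) and without tissue library 1 (−0.58, adjusted p = 0.61, for Tgfb1 and −1.18, adjusted p = 0.103, for Tgfbr1), and that of Tgfbr1 also without tissue library 2 (−0.59, adjusted p = 0.358).

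Tgfbr2 stood at 25.6 and 23.4 in colonocyte-like cells and 56.3 and 47.5 in cycling cells (−0.53 ± 0.21, adjusted p = 0.0558), and was called with the library as a block (−0.54, adjusted p = 0.0109), with scaling to library size (−1.09, adjusted p = 0.00404), with DESeq2 (adjusted p = 0.0353) and under 3 other alternatives (adjusted p = 0.0422 to 0.0434). Tgfb3 (−2.17, adjusted p = 0.123) and Tgfbi (−2.96, adjusted p = 0.103) did not pass, from 2 against 5 and 2 against 9 UMIs. Tgfb2 was too low to be tested between epithelial classes, and Inhba and Tgfbr3 had no UMI in either class. Goblet-like cells (1151 and 872) lay near the cycling cells, with Tgfb1 at 6.09 in both libraries, Tgfbr1 at 26.2 and 25.6 and Tgfbr2 at 48.7 and 52.6. In the pathway list 5 genes were higher in colonocyte-like cells and 7 lower, of 46 tested, fewer in share than the 39.8% of all genes called. Cdkn2b stood at 121 to 129 against 7.04 to 8.10 (4.63), Smad7 was higher (1.23), and Pmepa1 stood at 5.13 to 10.6 against 30.1 to 38.9 (−1.54). With scaling to library size the same list gave 2 higher and 10 lower, and Smad7 was not among the higher ones.

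Enteroendocrine-like cells of tissue (46 and 89), the hormone-producing cells, stood apart from the colonocyte-like, goblet-like and cycling cells in Tgfbr2 and Tgfbr3. Tgfbr1 stood at 77.8 (55.1 to 107) and 43.6 (29.0 to 63.0), from 38 and 28 UMIs, and the second interval takes in the levels of cycling cells. Tgfbr2 was counted 0 and 3 times, and the floor of 3 UMIs stood at 6.14 and 4.67. Tgfbr3 was counted 17 and 13 times there, out of 21 and 15 UMIs in all epithelial cells of tissue, and stood at 34.8 and 20.2. It was counted 0 times in colonocyte-like and in cycling cells of both tissue libraries. In assembloids the 44 and 44 enteroendocrine-like cells held 1 and 3 UMIs of Tgfbr3 and 8 and 32 of Tgfbr2. These values were not tested.

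**Figure D5:**
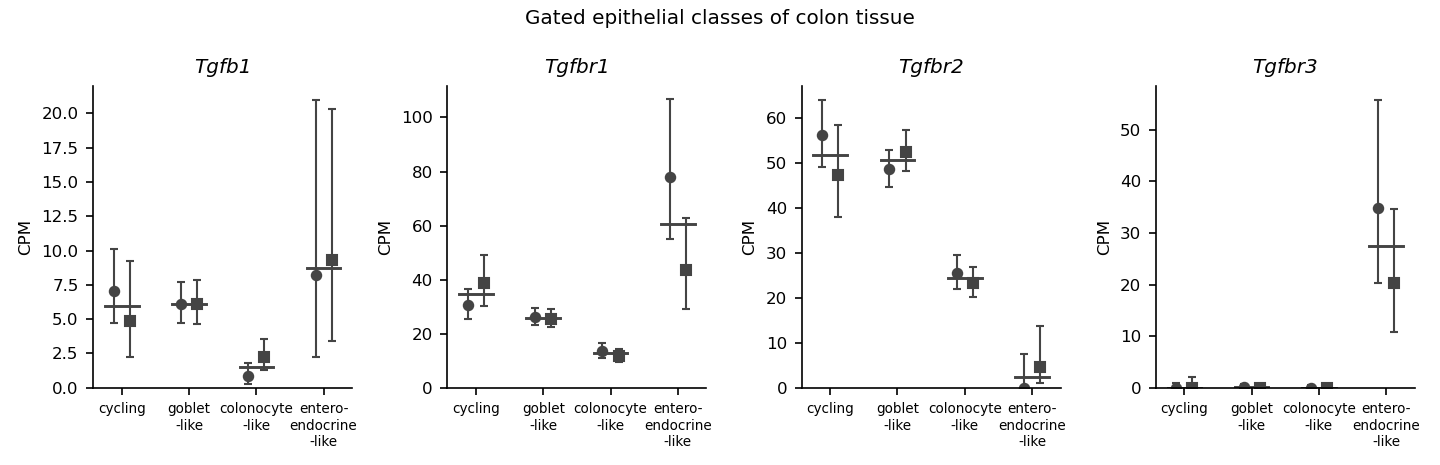
Levels of Tgfb1, Tgfbr1, Tgfbr2 and Tgfbr3 (CPM, axes from 0) in 4 epithelial classes of the tissue libraries, where the circle is replicate 1, the square replicate 2, the horizontal line their mean and each error bar a 95% counting interval. Tgfbr3 appears in enteroendocrine-like cells, at 34.8 and 20.2, where Tgfbr2 is at 0 and 4.67.

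The same contrast in assembloids gave no call among the 7 genes, beside 33.5% of all genes (15.4% higher and 18.1% lower). Tgfb1 stood at 10.5 and 7.66 in colonocyte-like cells (3311 and 1314) and 14.2 and 15.6 in cycling cells (4503 and 1055), with a log2 fold change of −0.34. Tgfbr1 stood at 5.94 and 8.41 against 7.02 and 11.5 (0.03), and Tgfbr2 at 37.8 and 50.1 against 59.4 and 77.2 (−0.26). Tgfb3, Inhba, Tgfbr3 and Tgfbi gave −0.84 to 0.82 (adjusted p = 0.374 to 0.965). The difference between the assembloid and the tissue contrast was itself not called for any of the 7 genes, with 0.89 ± 0.32 (adjusted p = 0.13) for Tgfbr1 and 1.09 ± 0.50 (adjusted p = 0.232) for Tgfb1. It was called for 836 of 15479 genes. Inhba and Tgfbr3 had no UMI in either tissue class, so for them this test could not have given a call. Hence the contrast is not shown to differ between tissue and assembloids for the other genes tested, and for Inhba and Tgfbr3 the question is not decided.

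The differences between assembloids and tissue were then read inside a class. In colonocyte-like cells 4 of 7 genes were higher in assembloids and none lower, beside 45.6% of all genes called (25.2% higher and 20.4% lower). Tgfb1 differed by 2.95 ± 0.36 (adjusted p = 2.87e-05) and Tgfbr2 by 1.24 ± 0.20 (adjusted p = 0.000251). Tgfbr3, at 2.32 and 1.09 against no UMI in tissue, was called (adjusted p = 0.00864), from 56 and 25 UMIs. The call was lost without tissue library 1 or 2 (adjusted p = 0.0689 and 0.0702) and with at most 5% mitochondrial counts (adjusted p = 0.0532). Inhba, at 3.49 and 0.394 against no UMI, was called from 84 and 9 UMIs (adjusted p = 0.0468), a call lost in 7 of the alternatives, among them without tissue library 1 (adjusted p = 0.201) or 2 (adjusted p = 0.2). Against a floor of 3 UMIs for both tissue libraries together, the pooled assembloid level was 10.1 times as high for Inhba and 8.78 times for Tgfbr3. Most of the Inhba UMIs came from library 1, and library 2 alone was not set against the floor. Tgfbr1 (−0.43, adjusted p = 0.136) and Tgfb3 (1.65, adjusted p = 0.164) did not pass. Tgfbi (3.14, adjusted p = 0.05005) did not pass either, but was called without assembloid library 2 (3.80, adjusted p = 0.00551), without the low-count filter (adjusted p = 0.0278) and without the 5% of cells with most UMIs (adjusted p = 0.0429). Tgfbr1 was called lower with scaling to library size (−0.83, adjusted p = 0.031). Col1a2 stood at 13.4 and 3.33 in these assembloid cells. Per UMI of Col1a2 they held 0.259 (0.202 to 0.331) and 0.118 (0.0522 to 0.237) UMIs of Inhba, intervals that take in the 0.240 and 0.151 of the fibroblasts, and at the Col1a2 share Inhba would have read 3.22 and 0.504. In cycling cells the Inhba ratio was 0.411 (0.341 to 0.493) and 0.179 (0.0882 to 0.334), and in Goblet-like cells 1.13 (0.625 to 2.04) and 0.111 (0.00254 to 0.802), so that in library 1 both lay above the fibroblasts. For Tgfbr3 the ratio in colonocyte-like cells was 0.173 (0.128 to 0.230) and 0.329 (0.201 to 0.523), against 0.140 and 0.175 in fibroblasts.

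In cycling cells 3 of 7 genes were higher in assembloids and 1 lower, beside 45.2% of all genes called (26.8% higher and 18.5% lower). Tgfb1 was higher by 1.86 ± 0.34 (adjusted p = 0.000795) and Tgfbr1 lower by −1.32 ± 0.23 (adjusted p = 0.000616). Tgfbr2 was higher by 0.97 ± 0.20 (adjusted p = 0.00177), a call lost with scaling to library size (0.39, adjusted p = 0.217) and without tissue library 2 (0.85, adjusted p = 0.0701). Tgfbr3, at 3.97 and 3.91 against no UMI, was called (adjusted p = 0.00894), and the call was lost without tissue library 1 or 2 (adjusted p = 0.113 and 0.0534) and with at most 5% mitochondrial counts (adjusted p = 0.0766). Inhba, at 4.31 and 0.626 against no UMI, was not called (adjusted p = 0.0784), but was called without assembloid library 2 (adjusted p = 0.00017) and without the low-count filter (adjusted p = 1.48e-05). Against a floor of 3 UMIs for both tissue libraries together, the pooled assembloid level was 6.16 times as high for Inhba and 7.87 times for Tgfbr3. Of the Inhba UMIs 168 came from library 1 and 12 from library 2. Tgfb3 (−1.34, adjusted p = 0.203) and Tgfbi (−0.21, adjusted p = 0.88) did not pass.

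Organoid cycling cells (2810 and 2772) had 2 of 7 genes higher than tissue cycling cells and 1 lower, beside 40.0% of all genes called (23.7% higher and 16.3% lower). Tgfbr2 stood at 84.6 and 132 and was higher by 1.53 ± 0.20 (adjusted p = 6.87e-05). Tgfb1 stood at 7.16 and 10.8 (1.01 ± 0.34, adjusted p = 0.0282) and Tgfbi was lower by −2.89 (adjusted p = 0.0402), and both calls were lost without either tissue library (adjusted p = 0.0732 to 0.209) and without organoid library 2 (adjusted p = 0.0856 and 0.143). That of Tgfb1 was also lost with DESeq2, scaling to library size, at most 5% mitochondrial counts, the stricter gate and without the 5% of cells with most UMIs (adjusted p = 0.0591 to 0.29), and that of Tgfbi with the last of these (adjusted p = 0.154) and without organoid library 1 (adjusted p = 0.141). Tgfbr1 stood at 20.5 and 27.7 and did not pass (−0.01, adjusted p = 0.979), nor did Tgfb3 (1.11, adjusted p = 0.251), Tgfbr3 (adjusted p = 0.828) and Inhba (adjusted p = 0.763).

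The genes most like each member across 35 columns of library and class with at least 50 cells were listed as a description, from 11893 genes. The columns share libraries and depth, and they pool stromal and epithelial libraries, whose headers name different Cell Ranger releases. The values are Pearson correlations of log2(CPM + 1). Inhba was most like Mmp10 (0.970), which encodes a stromelysin, and Il11 (0.955), a cytokine gene. Tgfbr3 was most like Cxcl12 (0.965), which encodes a chemokine of stromal cells, Tgfb2 like Pth1r (0.986), which encodes a hormone receptor, and Tgfbi like Ecm1 (0.955), which encodes a matrix protein. Tgfb1 was most like Pea15a (0.934), Tgfb3 like Ggta1 (0.963) and Tgfbr1 like Impact (0.924). Tgfbr2 had no close match, Ripk3 being the nearest (0.763). Among the 8 genes Inhba and Tgfbi (0.880) and Inhba and Tgfbr3 (0.861) ran most alike, whereas Tgfbr2 correlated with the others by 0.0106 to 0.365. Between the fibroblast ends, however, Inhba and Tgfbr3 went in opposite directions (log2 fold change 1.62 and −2.00, telocyte-like against trophocyte-like).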

How the data were processed

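Single-cell libraries (10x 3′ v3 chemistry) were quantified by the authors as UMI counts per gene and barcode. The submitters' processing notes give Cell Ranger 6 and mm10, and the deposited matrix headers name Cell Ranger 6.0.1 for stromal and 7.1.0 for epithelial libraries. Whether introns were counted is not given in the sources used here. No column of another sample was present.

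Cells with fewer than 500 genes or over 10% mitochondrial UMIs were removed. Classes were set by fixed marker lists in UMIs per 10000: epithelial at least 20 with 3 markers detected and fibroblast markers below 20, fibroblast at least 20, other classes at least 10, 3 markers and 3 times the next list, goblet 256, colonocyte 20, enteroendocrine 20, cycling 10, and telocyte minus trophocyte scores of 0.75 or more in size. No doublet caller was run, and cells passing both the epithelial and fibroblast limits were left unassigned.

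Counts were summed per library and class and tested with edgeR 4.0.16 (filterByExpr, TMM, quasi-likelihood, Benjamini-Hochberg over all genes, threshold 0.05) in R 4.3.3, with classes of at least 20 cells in both libraries. Tables were made in Python 3.11.15. Classes of the same library entered a fit as separate columns, with no term for the library in the main fit. Such columns are not independent, and the p-values for classes treat them as if they were. This holds also where 1 class was compared between groups. The test was tried on simulated counts. The study made no such tests between groups. DESeq2 1.42.0, other filters, gates, scalings, a library block and left-out libraries were alternatives. Over 2 libraries against 2 an exact permutation test cannot go below 0.33. Replicate numbers across epithelial groups did not pair (r = 0.20, 0.32 and −0.25), and classes of the same library did (r = 0.53 and 0.58 for assembloid and stromal libraries, 0.24 for tissue). The 8 genes and all lists were chosen with earlier results of these data known. All 8 genes were named in each comparison, and of other pathway genes up to 3 per role with the largest called change, at least 5 CPM (UMIs per 1000000 UMIs of a class) in 1 group and no overlap. Alternatives added after seeing the data were the library-size scaling, the cells without a fibroblast UMI, the limit of 15 cells and the test between the tissue and assembloid contrasts. Values of some genes are not reported here.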

Additional observations from a re-analysis of the deposited data

Results flagged for a closer look

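Cells of the stromal libraries that passed both the glia and the neuron marker list, 30 and 32 cells, were in no comparison, and they carried Tgfbi at 854 and 811 CPM. Both values lie above every fibroblast class of the same libraries, where the highest was 171, and the result was singled out because these cells were used in no test. Tgfb1 stood there at 254 and 162 and Tgfb2 at 212 and 170.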

How the results depend on the processing

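Of the values of single genes that were called, 597 kept their direction under an alternative and, where it was tested, their call. A further 53 kept the direction and lost the call, and 1 turned. Of the values not called, 343 stayed so or, without a test, kept their sign, 31 became called and 38 turned in sign. Values inside assembloid epithelial or stromal libraries with 1 library left out had no test and were judged by sign alone. The number of genes called between the fibroblast ends was 2784, rising to 5292 with the library as a block and falling to 1556 with the stricter gate. With at most 5% mitochondrial counts it fell to 2237 for neuron-like cells (from 5792), 4016 for colonocyte-like against cycling tissue cells (6162), 3326 for cycling assembloid (7004) and 2588 for cycling organoid cells (6188). Leaving out 1 library moved the counts to 5297 to 10185 for assembloid against tissue (9589), 5206 to 9746 for organoid against tissue (9089), 7760 to 9836 for organoid against assembloid (10167), 1778 to 6593 and 2590 to 5514 for colonocyte-like against cycling cells of tissue and assembloids (6162 and 5183), and 3457 to 7304, 2532 to 7308 and 2158 to 6744 for assembloid colonocyte-like, assembloid cycling and organoid cycling cells against tissue (7058, 7004 and 6188). The cause was not tested.

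Signs turned as follows, in log2 fold change. With scaling to library size Tgfb2 read −0.28 in assembloid against tissue epithelium, Tgfbr1 −0.0075 in organoid against tissue, Tgfbr2 0.034 between fibroblast ends, Tgfbi 0.23 in neuron-like cells, Tgfbr1 −0.36 in assembloid colonocyte-like cells and Tgfb3 0.23 in glia-like cells. With 1 library left out Tgfb2 of assembloid against tissue ranged from −0.39 (without assembloid library 1) to 0.53, reading −0.13 without tissue library 1, and in cells without a fibroblast UMI −0.29. Over all barcodes, which take in fibroblasts of the assembloid libraries, Tgfb2 and Tgfb3 of organoid against assembloid read −1.14 and −0.26. Tgfbr2 between fibroblast ends read 0.0067 with at most 5% mitochondrial counts, 0.060 with the stricter gate and 0.079 and −0.011 in library 2 and library 1 alone, and Tgfbr2 of fibroblasts against epithelium read 0.17 and −0.22 in library 1 and library 2 alone. Tgfbi of neuron-like cells read 0.13 with DESeq2, 0.0013 with the block, 2.20 with at most 5% mitochondrial counts, 0.80 with the stricter gate, 0.094 without the 5% of cells with most UMIs and 0.28 in either library alone, and Tgfb2 read −0.15 with the stricter gate and −0.062 without those 5%. Tgfbr2 of tissue colonocyte-like cells read 0.031 with at most 5% mitochondrial counts, and Tgfb3 of glia-like cells 0.11 with DESeq2. Tgfbr1 of assembloid colonocyte-like cells read −0.080 without the low-count filter, −0.10 with the stricter gate, −0.00073 without assembloid library 2 and −0.065 without tissue library 1, with 0.098 as the highest. The value for Tgfbi, cycling cells, assembloid against tissue, was 0.29 without the 5% of cells with most UMIs, 0.49 without assembloid library 2 and 0.15 without tissue library 2, with −1.705 as the lowest. Tgfbr1 of cycling organoid cells read 0.0037 without the filter, 0.00021 with at most 5% mitochondrial counts, 0.029 without those 5%, 0.0014 without assembloid library 2, 0.07 without organoid library 1 and 0.17 without tissue library 2, with −0.19 as the lowest.

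Scaling to library size moved the median log2 fold change of all genes to −0.359 for assembloid against tissue epithelium, 0.144 for neuron-like cells and between −0.589 and −0.312 for the epithelial classes. The share of calls that were higher went from 53.4% to 37.7% for assembloid against tissue, 49.1% to 65.1% for neuron-like cells, 51.9% to 22.9% and 45.9% to 19.3% for colonocyte-like against cycling cells of tissue and assembloids, and from 55.2% to 35.4%, 59.2% to 28.7% and 59.2% to 27.6% for assembloid colonocyte-like, assembloid cycling and organoid cycling cells against tissue. In the last it was 49.1% with DESeq2. For glia-like cells the share was 46.7% in the main fit, 62.1% with scaling to library size and 66.5% with DESeq2. The replicate number as a block across epithelial groups, which did not pair, gave 9460 calls for assembloid against tissue epithelium, 8959 for organoid against tissue epithelium and 10027 for organoid against assembloid epithelium. The same number gave calls for Tgfbi in colonocyte-like cells (adjusted p = 0.039) and Inhba in cycling cells (adjusted p = 0.00369) of assembloids against tissue. The library as a block between classes of the same library changed no other call of the 8 genes than those given above. With 1 of 2 libraries left out, the fits inside assembloid epithelial or stromal libraries give values without a test. Endothelial-like and glia-like cells could not be fitted with at least 20 cells.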

Other observations

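The stromal libraries also held squamous-like cells, 769 and 38, which entered no comparison. Inhba stood there at 44.8 and 118 CPM, Tgfb1 at 55.8 and 52.1, Tgfb3 at 14.9 and 16.0 and Tgfbi at 67.6 and 26.9. Tgfbr2 stood at 39.4 and 34.5 and Tgfbr1 at 11.0 and 7.56, whereas Tgfb2, at 3.34 and 5.04, and Tgfbr3, at 4.83 and 2.52, were below every fibroblast class of these libraries.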
